A study of Mus musculus with 58 samples.

Results

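Acinar cells of the mouse pancreas at E15.5 (the embryonic day) were read out as 121 single-cell wells on a pair of plates of sorted live cells, 65 on the plate of experiment EP10 and 56 on that of EP17. They were chosen from measured values: a kept well counted as acinar when Cpa1, the gene of the digestive enzyme carboxypeptidase A1, made up at least 0.3% of its transcripts and at least 1 of the 3 transcription factor genes Ptf1a, Rbpjl and Bhlha15 had a value of at least 1. Kept wells held at least 2000 transcripts and at least 500 genes, spike-ins left out. There were 417 of them on the 2 plates, 288 in EP10 and 129 in EP17, and 4318 in the whole series, so the acinar wells were 22.6% of the kept wells in EP10 and 43.4% in EP17.

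The series holds 58 libraries of embryonic mouse pancreas, made by SORT-seq, which sorts 1 cell into each well of a 384-well plate and counts transcripts by molecular barcodes near their 3′ ends. The embryos came from pregnant females that express mip-gfp, green fluorescent protein under the mouse insulin promoter, so the reporter was shared by all groups described here. The pancreas was dissected and dissociated with trypLE, and cells were sorted either as live cells (Dapi −) or by MIP-GFP. The groups used here are live cells of E15.5 (EP10 and EP17), E12.5 (EP11 and EP18), E13.5 (EP12), E14.5 (EP14) and E18.5 (EP16, on 2 plates), and MIP-GFP cells of the same experiments for the count of acinar wells alone. No label gives the number of embryos or litters behind a plate, so the experiment served as the replicate. Between stages, p-values measure the spread between experiments. In the comparisons within plates, the level of each plate is taken out. There p-values measure how far the difference between groups varied from plate to plate, with a spread estimated across all genes.

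Acinar cells form the tips of the branching pancreatic epithelium and make the enzymes that digest protein, fat and starch in the gut. Most of these enzymes are made as inactive zymogens, folded in the endoplasmic reticulum and stored in granules until signals such as cholecystokinin release them. PTF1, a complex of Ptf1a, Rbpjl and an E protein, binds the promoters of many enzyme genes, and Bhlha15 (Mist1) is known for its part in building the secretory machinery. Trunk cells, the epithelium behind the tips, give rise to ducts and to hormone cells.

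The sequence upstream of 5 enzyme genes is shown because PTF1 is known to read a bipartite element of an E box (CANNTG, where N is any base) and a TGGGAA box. Each line gives the 150 bases before the transcription start from RefSeq (GRCm38.p6), 5′ to 3′ on the gene's strand, with a CANNTG and a TGGGAA that lie within 22 bases of each other in capitals; both strands were searched. The first 4 are the windows in which such a pair was found, and Ctrb1, the most abundant enzyme, is shown beside them.
Cpa1: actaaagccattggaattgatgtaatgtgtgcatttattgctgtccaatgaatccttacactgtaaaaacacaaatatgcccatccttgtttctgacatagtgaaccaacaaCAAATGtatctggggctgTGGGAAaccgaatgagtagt
Pnliprp1: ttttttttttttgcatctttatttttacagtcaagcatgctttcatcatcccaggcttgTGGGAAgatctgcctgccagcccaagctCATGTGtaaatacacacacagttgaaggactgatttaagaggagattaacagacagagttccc
Cel: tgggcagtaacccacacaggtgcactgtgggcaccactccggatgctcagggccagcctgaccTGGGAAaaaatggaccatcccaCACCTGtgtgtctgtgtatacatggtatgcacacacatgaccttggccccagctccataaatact
Prss1: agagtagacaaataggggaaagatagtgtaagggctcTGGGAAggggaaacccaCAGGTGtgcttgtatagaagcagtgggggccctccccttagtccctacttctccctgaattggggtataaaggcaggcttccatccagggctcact
Ctrb1: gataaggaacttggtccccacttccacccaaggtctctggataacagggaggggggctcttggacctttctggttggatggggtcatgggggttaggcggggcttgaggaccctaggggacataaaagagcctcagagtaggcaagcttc
The windows lie at chr6:30639068-30639217 (plus strand) for Cpa1, chr19:58728737-58728886 (plus) for Pnliprp1, chr2:28563404-28563553 (minus) for Cel, chr6:41458780-41458929 (plus) for Prss1 and chr8:111691011-111691160 (minus) for Ctrb1. The pair ran from base 38 to base 15 before the start in Cpa1, from 91 to 58 in Pnliprp1, from 87 to 60 in Cel and from 113 to 91 in Prss1, while the Ctrb1 window held neither motif. RefSeq entries matched 25 of the 30 enzyme genes in the table, and 4 of these 25 (16%) held such a pair, against 679 of all 27025 promoter windows (2.51%). CANNTG alone was found in 17 of the 25 windows (68%) and in 47.4% of all windows. TGGGAA was found in 7 (28%) and in 13.1%. A match of letters is not a measured binding site, and no binding was measured in this series.

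The 2 plates differed in depth. Acinar wells held a median of 35356 transcripts (2002 to 115267) in EP10 and 9189 (2031 to 37748) in EP17. The other kept wells held 22268 in EP10 and 6258 in EP17. The values are corrected for barcode collisions and cannot exceed 1597 per gene and well. Ctrb1 (chymotrypsinogen B1) stood at that ceiling in 7 acinar wells of EP10 and 2 of EP17, so its level in those wells is a lower limit. In EP10, 19 of the 65 acinar wells carried mesenchymal transcripts (15 genes of collagens and other fibroblast genes) at 0.2% or more of their total. These 19 wells had a median of 3152 transcripts against 43982 in the other 46, and a median of 34.5 spike-in transcripts against 417. No acinar well of EP17 reached 0.2%. Values without the 19 wells are given for some of the results, not for all that differ. The part of mesenchymal RNA in the results was not otherwise tested.

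Acinar wells took 22.6% of the kept live wells in EP10 (Wilson 95% interval 18.1 to 27.7) and 43.4% in EP17 (35.2 to 52.0). The 2 intervals do not overlap, so the plates of 1 stage differed by more than counting error, and the share of any 1 plate is no measure of the organ. At earlier stages the same rule kept 14 of 351 wells in EP11 and 20 of 219 in EP18 at E12.5 (3.99% and 9.13%), 49 of 347 at E13.5 (14.1%) and 24 of 319 at E14.5 (7.52%). At E18.5 it kept 0 of 278 and 0 of 301 live wells, which allows shares of up to 1.08% and 0.997%. The plate with 301 wells is labelled live, but its name carries P6, as those of the MIP-GFP plates do. Its values also reach 9601, above the ceiling of 1597. The highest Cpa1 share in any kept well of these 2 plates was 0.0685%. In 6 live wells of EP16 the enzyme genes together passed 3% of transcripts, and in all 6 most of that came from Cpa3, the mast-cell carboxypeptidase. Among MIP-GFP wells, the rule kept 1 of 358 in EP10 and 0 elsewhere. Intervals and limits cover counting error only, and fewer cells of a type sorted or surviving cannot be told apart from fewer cells in the organ.

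**Figure D1:**
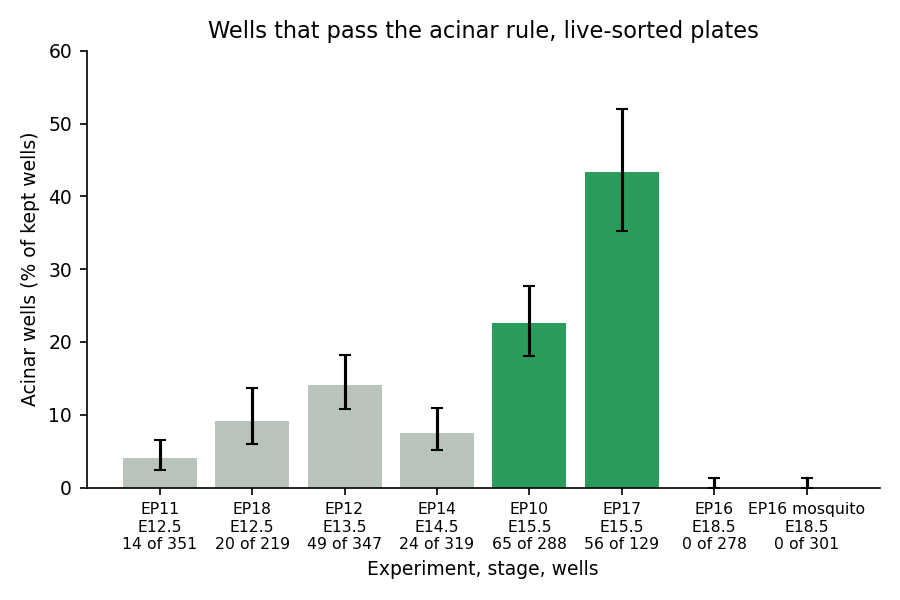
Percent of kept live-sorted wells that pass the acinar rule, by experiment in order of stage; bars show the share and lines the Wilson 95% interval. EP17 at 43.4% and EP10 at 22.6% stand above the 3.99% to 14.1% of the earlier experiments, and both E18.5 plates are at 0.

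The acinar label was checked on Cpb1, carboxypeptidase B1, a marker that the rule did not use. It gave at least 1 transcript in 57 of 65 acinar wells in EP10 and in 42 of 56 in EP17. With each well thinned to 2000 transcripts the shares were 49.2% and 53.6%. Mesenchyme-gated wells, which should not make the enzyme, had Cpb1 in 41.6% of 113 wells in EP10 at a median of 20907 transcripts, and in 6.19% after thinning. That last value is read here as the background of this plate. All 3 factors were detected in 44 acinar wells of EP10 and 32 of EP17, and only 1 of them in 16 and 7. None of the 121 wells had pancreatic hormone transcripts at 1% or more, and Neurog3, which marks endocrine progenitors, was seen in 6 and 2.

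Wells near the threshold did not form a gap. The lowest Cpa1 shares inside it were 0.307%, 0.307% and 0.342% in EP10 and 0.307%, 0.310% and 0.364% in EP17, and the highest shares outside it among wells with a factor were 0.249%, 0.245% and 0.223% in EP10 and 0.292%, 0.266% and 0.264% in EP17. Cpa1 passed with no factor in 3 wells of EP10 and 2 of EP17. Non-member wells with enzymes at 3% or more of transcripts numbered 6 in EP10 and 17 in EP17, 1 of the 17 mostly by Cpa3. Some wells outside the rule thus resemble those inside it, and the comparisons below were also run with only those other wells whose enzymes were under 1%, an alternative added after seeing the data.

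Enzyme transcripts made up a median of 4.94% of an acinar well in EP10 (0.661% to 12.7%) and 7.21% in EP17 (1.07% to 21.3%), against 0.123% and 0.331% in the other wells. Over the summed wells, the share was 5.49% in acinar wells against 0.319% in the others in EP10, a ratio of 17.2. In EP17 it was 7.82% against 1.83%, a ratio of 4.27. These values follow from the rule and carry no test.

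The enzymes fell into a pair of sets by how many wells held them, a division made after the values were seen. Ctrb1, Cpa1, Pnliprp1 (a pancreatic lipase-related protein), Clps (colipase, the cofactor of pancreatic lipase), Cel (carboxyl ester lipase) and Cela1 (elastase 1) supplied 85.1% of all enzyme transcripts in EP10 and 91.1% in EP17. Ctrb1 led, with a median of 1.76% of transcripts in EP10 (0.169% to 7.12%) and 2.76% in EP17 (0.277% to 12.3%). It was present in every acinar well, but also in 111 of 113 mesenchyme-gated wells of EP10, where its median was 0.0519%. Detection of Ctrb1 therefore separates nothing, and its level does.

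Another 23 enzyme genes were uneven from well to well. Together they reached a median of 0.309% of transcripts in EP10 and 0.308% in EP17, with a highest well of 2.16% and 2.14%. Amy2b, a pancreatic amylase, was detected in 86.2% of acinar wells in EP10 and 75.0% in EP17. Cela2a (elastase) was detected in 75.4% and 62.5%, and the trypsinogen Prss2 in 66.2% and 66.1%. Try10, also a trypsinogen, was found in 70.8% and 60.7%, Cela3b in 69.2% and 58.9%, and Prss1 in 53.8% and 44.6%. The ribonuclease Rnase1 reached 44.6% and 46.4%, and Ctrc (chymotrypsin C, which cleaves trypsinogen) 12.3% and 17.9%. The amylase genes and the trypsinogen genes form families of near-identical copies, so how reads were shared within a family is uncertain.

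Several enzymes that define the adult gland were close to absent. Pnlip, the main pancreatic lipase, was seen in 3 of 65 acinar wells in EP10 and 0 of 56 in EP17. Ctrl was seen in 0 and 1, and Pla2g1b, the pancreatic phospholipase A2, in 0 and 2. A count of 0 allows a share of up to 4.62% in EP10 and 5.36% in EP17. Cpa3 summed to 1.00 and 7.19 CPM (the gene's transcripts scaled to a common library size and composition) in acinar wells of EP10 and EP17, against 49.2 and 701 CPM in the other wells. Of the 26 enzyme genes with enough transcripts to be summed, Cpa3 alone was lower in acinar wells on both plates.

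**Figure D2:**
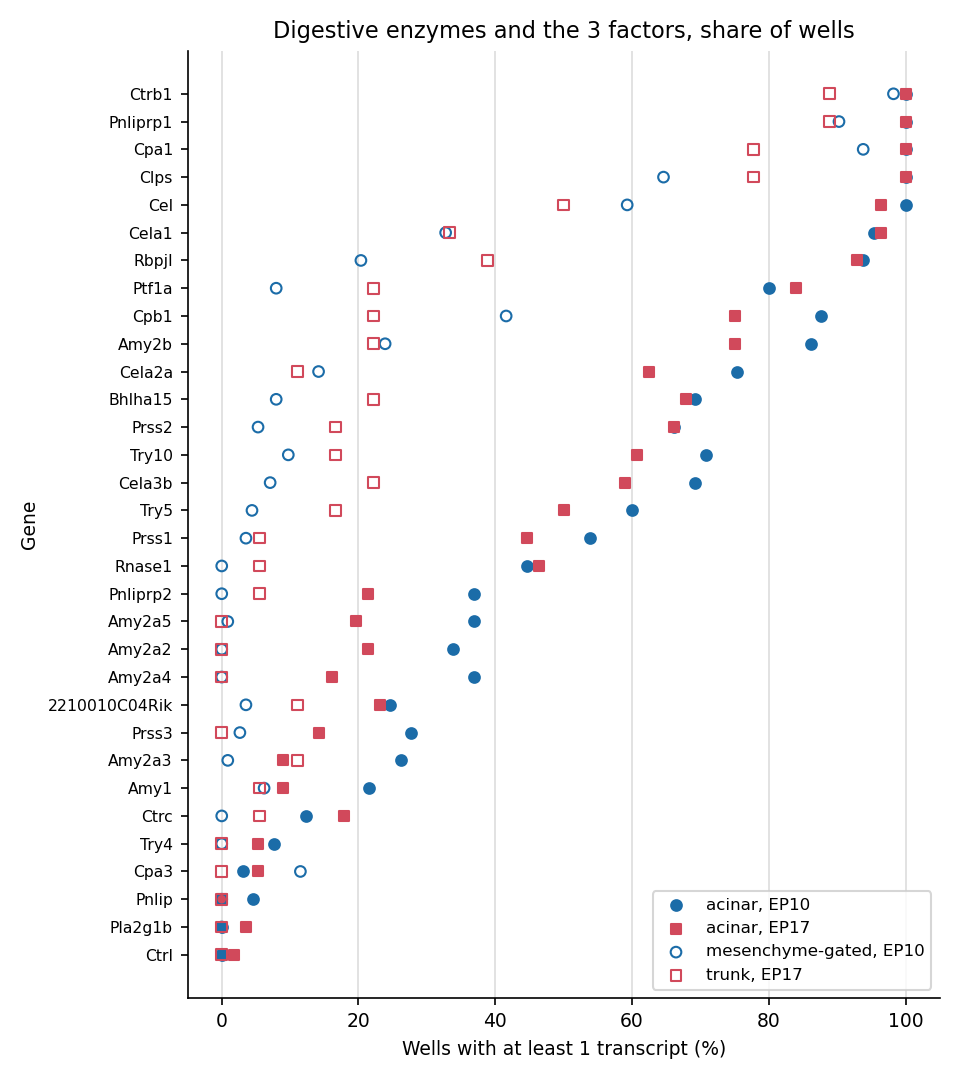
Percent of acinar wells with at least 1 transcript of digestive enzymes and of the 3 factor genes of the rule, by plate (filled points), with mesenchyme-gated wells of EP10 and trunk wells of EP17 as open points. Ctrb1 is at 100% on both plates, Cpb1 at 87.7% and 75.0%, and Ctrc, Pnlip, Ctrl and Pla2g1b lie at the low end, from 17.9% down to 0.

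Acinar wells were first set against the other kept wells of the same plates, 223 in EP10 and 73 in EP17. The other wells were a mixture: 113 mesenchyme-gated, 44 endocrine-gated and 17 trunk wells with 49 that met no gate in EP10, and 8, 20, 18 and 27 in EP17. Sums per plate were compared with edgeR's quasi-likelihood test with the plate as a block, leaving out the rule genes and the enzymes. Of 9991 genes tested, 2310 passed an adjusted p of 0.05 (23.1%), 950 higher (9.51%) and 1360 lower (13.6%) in acinar wells. With 2 plates this fit has 1 residual degree of freedom, and its small p-values rest on a spread estimated across all genes. Without the plate as a block 0 genes passed in edgeR, though 1420 had an unadjusted p under 0.05, and DESeq2 with the block called 527.

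Genes of the granule and its contents led the higher genes. Spink3, a trypsin inhibitor that protects the cell from its own enzymes, had 583 and 3596 CPM in acinar wells of EP10 and EP17, against 19.8 and 451 CPM in the other wells. Its level differed between plates, but acinar wells were the higher on each (log2 difference 3.92, SE 0.32, adjusted p 7.17e-26). Reg1, a secreted protein of acinar cells, had 172 and 487 CPM against 6.28 and 58.4 CPM in the other wells (log2 difference 3.95). Sycn (syncollin, a granule protein) had 61.3 and 77.3 CPM against 2.67 and 11.7 CPM (3.90), and Serpini2, a serine protease inhibitor of the pancreas, 595 and 940 CPM against 22.6 and 212 CPM (3.45). Of the 14 granule and exocytosis genes tested, 9 rose and 1 fell, with a median log2 difference of 1.59 beside −0.05 over all genes tested. The small GTPases Rab26, Rab3d and Rab27b rose by 3.53, 1.55 and 1.24 on the log2 scale, and Vamp2, a vesicle fusion protein best known from neurons, fell by 1.03.

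Most of the transcription factors tested outside the rule were called higher too, 7 of 11, and 0 lower (median log2 difference 1.58). Nupr1, a stress-induced chromatin protein, had 501 and 336 CPM in acinar wells of EP10 and EP17 and 23.9 and 81.8 CPM in the other wells (log2 difference 3.34, SE 0.32, adjusted p 9.09e-20). Mecom had 93.9 and 131 CPM in acinar wells and 6.60 and 26.7 CPM in the others (3.24). Gata4, Nr5a2 (a nuclear receptor of acinar cells), Xbp1 (the factor of the unfolded protein response) and Foxa3 rose by 1.85, 1.89, 1.58 and 1.20 on the log2 scale. Gata6 (log2 difference −0.29, adjusted p 0.494) and Tcf3, which encodes E proteins that pair with Ptf1a (−0.42, adjusted p 0.312), did not pass.

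Folding and export genes of the endoplasmic reticulum rose as a group. Of 32 tested, 20 rose and 0 fell, with a median log2 difference of 0.95. Pdia2, the pancreatic protein disulfide isomerase, had 116 and 111 CPM in acinar wells of EP10 and EP17 against 6.44 and 28.4 CPM in the others (3.34, SE 0.34, adjusted p 1.13e-17). Erp27 had 112 and 178 CPM against 3.14 and 55.1 CPM (3.42). Edem1, which marks misfolded glycoproteins for disposal, rose by 2.13 and Sdf2l1 by 1.77. Ribosomal protein genes were a further 77 of which 25 rose and 0 fell (median 0.66). Against other wells with enzymes under 1% the ribosomal count was 72 of 78.

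Of 12 genes on the list of receptors and signalling of acinar cells 3 rose and 3 fell, with a median log2 difference of 0.10. Those that fell included the Wnt target Axin2 (−1.85) and the calcium channel gene Itpr1 (−2.09). Cckar, the cholecystokinin receptor through which meals trigger enzyme release, had 634 and 1217 CPM in acinar wells of EP10 and EP17 and 40.1 and 419 CPM in the others (log2 difference 2.77, SE 0.32, adjusted p 1.05e-14). Il22ra1, the interleukin 22 receptor, had 42.2 and 32.4 CPM in acinar wells and 1.26 and 13.4 CPM in the others (3.57). Gamt, which makes creatine, had 696 and 776 CPM in acinar wells and 71.5 and 205 CPM in the others (2.63). In the list of amino acid supply and creatine synthesis 10 of 20 genes rose, among them Gnmt (3.08), and 2 fell, among them the transporter Slc38a5 (−3.62). Aqp8, a water channel of the acinar membrane, rose by 3.86, the plasma protein gene Vtn by 3.704 and the glutamine transporter Slc38a3 by 3.54.

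Among the lower genes were markers of other cell types in the mixture. Of 19 endocrine genes tested 18 fell: Neurog3 had 3.515 and 3.595 CPM in acinar wells of EP10 and EP17, against 157 and 234 CPM in the others (log2 difference −5.62, SE 0.41, adjusted p 2.24e-31), and Isl1 had 2.01 and 1.80 CPM against 115 and 289 CPM. The remaining endocrine list gene, Ttr (transthyretin), was higher; it was singled out after its values were seen. All 12 mesenchyme genes tested fell, Dcn (decorin) to 60.8 and 1.80 CPM in acinar wells, against 676 and 316 CPM in the others (−4.15). The immediate early genes Dusp1 and Ier3, which are induced within minutes of stimulation, fell too (log2 differences −2.82 and −3.07). With the 19 EP10 wells left out, 10 of 11 mesenchyme genes were called lower.

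The nearest epithelial neighbours were the trunk wells, 17 in EP10 and 18 in EP17, gated by Epcam, by trunk genes including Sox9 and Spp1, and by the absence of endocrine genes. Of 7915 genes tested, 1006 passed (12.7%), 443 higher (5.6%) and 563 lower (7.11%) in acinar wells. Without the block 0 genes passed in edgeR (882 at an unadjusted p under 0.05), and DESeq2 called 146. Enzyme share over summed wells was 5.49% in acinar wells against 0.310% in trunk wells in EP10 and 7.82% against 1.25% in EP17.

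Among the higher genes, Ero1lb, an oxidase that reloads disulfide isomerases, had 104 and 165 CPM in acinar wells of EP10 and EP17, against 5.66 and 5.32 CPM in trunk wells (log2 difference 4.37, SE 0.49, adjusted p 3.43e-09). Pdia2 had 114 and 111 CPM in acinar wells against 2.83 and 10.7 CPM (4.57). Of 31 folding genes 23 rose and 1 fell, with a median of 1.14 beside −0.03 over all genes, Herpud1 (2.07) and Sdf2l1 (2.84) among those that rose. Of 14 granule genes 8 rose and 0 fell, with a median of 2.41, and Rab3d, which sits on zymogen granules, had 131 and 145 CPM in acinar wells against 7.08 and 58.6 CPM in trunk wells (2.73). Of 9 factors tested 4 rose: Nupr1 (2.60), Mecom (2.23), Gata4 (1.78) and Xbp1 (1.61). Nr5a2 did not pass against trunk wells (0.55, adjusted p 0.356), with 111 and 39.4 CPM in acinar wells and 76.5 and 26.6 CPM in trunk wells.

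Of the amino acid and creatine genes 9 of 16 rose and 0 fell, with a median of 1.14. Gatm, the first enzyme of creatine synthesis, had 55.2 and 133 CPM in acinar wells of EP10 and EP17 against 2.83 and 26.6 CPM in trunk wells (log2 difference 3.14, SE 0.50, adjusted p 6.78e-06). Gamt, which completes creatine, had 690 and 774 CPM against 103 and 218 CPM in trunk wells (2.32), and asparagine synthetase, Asns, rose by 1.96. Ass1, of arginine synthesis, had 145 and 41.2 CPM in acinar wells against 2.83 and 21.3 CPM in trunk wells (3.94). Aldh1a1, which makes retinoic acid, had 100.5 and 177 CPM against 5.66 and 21.3 CPM (3.65).

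Trunk wells kept the higher level of several pathway genes. The Notch receptors Notch2 and Notch3 fell in acinar wells, Notch2 to 25.9 and 23.3 CPM in EP10 and EP17, against 110 and 123 CPM in trunk wells (log2 difference −2.19, SE 0.35, adjusted p 6.92e-06). The ligand Dll1 and the glycosyltransferase Lfng, which modifies Notch, rose by 2.70 and 2.19. In the Notch list 2 of 13 genes rose and 4 fell. Fgfr2, the receptor for mesenchymal growth factors that drive pancreatic epithelium, had 26.9 and 25.1 CPM in acinar wells against 105 and 154 CPM in trunk wells (−2.20). Vim, an intermediate filament gene on the trunk list, had 158 and 151 CPM against 1103 and 1299 CPM (−2.94), and Bicc1, of the duct programme, fell by 2.85. The matrix genes Spon1 (−4.63), Col9a3 (−5.06) and Col4a1 (−4.16) and the growth factor target Ctgf (−7.00) fell too.

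Mesenchyme genes fell in 8 of 8 tested against trunk wells, with a median of −2.44, but 5 trunk wells of EP10 carried mesenchymal transcripts at 0.2% or more, as 19 acinar wells did. Without these wells 1 of 7 was called higher and 1 lower, with a median of 0.16, and Col3a1 stood at a log2 difference of 0.33 in place of −2.45. The count of all genes called became 758. Other lists changed as well. Of 9 factors 5 then rose and 1 fell, and of 11 Notch genes 3 rose and 3 fell. Of 12 trunk and duct genes 10 were called lower, against 6 of 12 with all wells. Hormone-related genes were few: 2 of 4 endocrine genes tested rose, Ttr, with 896 and 1916 CPM in acinar wells against 80.7 and 474 CPM in trunk wells (2.72), and Cpe (1.44). Trunk wells were gated for no Chga, Neurog3 or Fev and for hormones under 1%, and the acinar rule set no such limit. The gates thus favour higher endocrine genes in acinar wells, and their part in these calls was not tested.

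Cell cycle transcripts took a larger share of acinar wells than of the mixture of other wells on both plates, and beside trunk wells it was higher in EP10 and lower in EP17. Without the wells with mesenchymal transcripts it was lower in EP10 too, with a median of 1.10% in acinar wells and 1.16% in trunk wells. The 94 cell cycle genes made up a median of 1.21% of transcripts in acinar wells of EP10 (0.238% to 2.86%) and 1.11% in EP17 (0.139% to 2.13%), against 0.975% and 1.17% in trunk wells and 0.518% and 0.5003% in all other wells. After thinning to 2000 transcripts, 67.7% of acinar wells in EP10 and 58.9% in EP17 held at least 20 cell cycle transcripts (63.1% and 57.1% by share before thinning). The other wells stood at 34.1% and 38.4%, and trunk wells at 52.9% and 50%. Without the 19 wells with mesenchymal transcripts the acinar share in EP10 was 60.9%. In the sums, 9 of 39 S phase genes rose over the other wells and 0 fell, with a median log2 difference of 0.44, and 4 of 54 G2 and M phase genes rose and 0 fell, with a median of 0.25, a share of calls below the 9.51% of all genes.

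The S phase genes that rose included Ung, which removes uracil from DNA (log2 difference 1.27), Fen1, which trims replication flaps (1.08), and Rrm2, a subunit of ribonucleotide reductase. Rrm2 had 219 and 331 CPM in acinar wells of EP10 and EP17 and 93.9 and 189 CPM in the other wells (1.03, SE 0.27, adjusted p 0.0015). Against trunk wells 1 of 39 S phase genes was called, again Rrm2 with 80.7 and 224 CPM in trunk wells (1.02), and 0 of 54 G2 and M phase genes. The G1 cyclin Ccnd1 ran the other way. It had 55.2 and 32.3 CPM in acinar wells of EP10 and EP17, against 283 and 250 CPM in trunk wells (−2.56, SE 0.28, adjusted p 3.31e-09). Mycn also fell against trunk wells, to 7.46 and 3.58 CPM in acinar wells, against 36.8 and 26.6 CPM (−2.39).

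Within the acinar wells, those with a larger enzyme share tended to have a smaller cell cycle share, more clearly in EP10 than in EP17. Over wells, enzyme share and cell cycle share had a Pearson correlation of −0.524 and a Spearman correlation of −0.502 in EP10 (n = 65), and of −0.356 and −0.325 in EP17 (n = 56). Both shares have the same total, so a rise of one lowers the other by construction. With the cell cycle share taken of the non-enzyme transcripts, Pearson's value was −0.486 in EP10 and −0.296 in EP17. Spearman's value was then −0.456 and −0.254. Without the 19 wells with mesenchymal transcripts, Pearson's value in EP10 (n = 46) was −0.593 for shares of all transcripts. It was −0.559 with the cell cycle share of the non-enzyme transcripts. Enzyme share and depth had a Pearson correlation of 0.0711 in EP10, −0.347 in EP10 without those 19 wells, and −0.0640 in EP17. Cell cycle share and depth had −0.0703, 0.320 and 0.354 in the same sets, and the part of depth in the relation was not tested. In the 33 EP17 wells with at least 7000 transcripts the enzyme and cell cycle shares gave −0.355 by Pearson and −0.207 by Spearman. With the cell cycle share of the non-enzyme transcripts these wells gave −0.272 and −0.0956. The 47 EP10 wells of that depth gave −0.559 and −0.535 by the same measure. Wells of a plate share their library preparation, and these values describe the 2 plates.

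**Figure D3:**
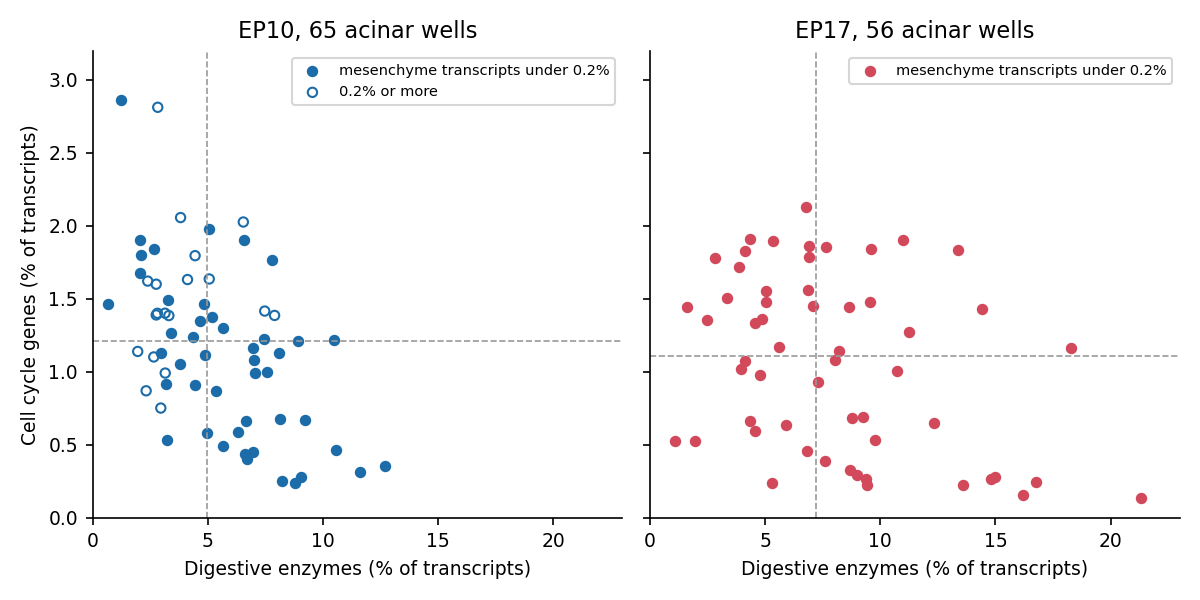
Cell cycle share against digestive enzyme share of each acinar well, as percent of transcripts, for EP10 and EP17; dashed lines mark the plate's medians and EP10 wells with mesenchymal transcripts at 0.2% or more are drawn apart. Wells with high enzyme shares lie lower on the cell cycle axis on the whole, with wide scatter (Pearson −0.524 in EP10 and −0.356 in EP17).

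The acinar wells of each plate were then split at the plate's median enzyme share into enzyme-rich and enzyme-poor wells, with 32 and 33 wells in EP10 and 28 and 28 in EP17. Each set is a range of a continuous share and no cell type. Of 7395 genes tested, 403 passed (5.45%), 277 higher (3.75%) and 126 lower (1.7%) in the rich wells. Without the block 0 passed in edgeR (186 at an unadjusted p under 0.05). DESeq2 called 33 of the 689 genes left by its filter, and 19 of 4139 passed when the rule asked for Cpa1 at 1%. Of the EP10 wells with mesenchymal transcripts, 4 were among the rich wells and 15 among the poor, and without them 452 genes passed.

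Secretory genes went with the enzymes. Of 31 folding genes 24 rose and 0 fell in the rich wells, with a median log2 difference of 0.66 beside −0.0033 over all genes, and 23 of 31 without the mesenchymal wells. Sel1l, which clears misfolded proteins from the endoplasmic reticulum, had 740 and 1263 CPM in rich wells of EP10 and EP17, against 284 and 429 CPM in poor wells (1.46, SE 0.14, adjusted p 2.32e-23). Erp27 had 143 and 259 CPM in rich wells against 56.0 and 101 CPM in poor wells (1.352), and Pdia2 161 and 198 CPM against 43.5 and 39.2 CPM (2.01). Spink3 had 795 and 6184 CPM against 240 and 1395 CPM (1.95) and Reg1 240 and 975 CPM against 63.8 and 95.2 CPM (2.55). Over wells, enzyme share and folding share had a Pearson correlation of 0.741 in EP10 and 0.654 in EP17.

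Of 10 factors outside the rule 3 rose and 0 fell, with a median of 0.32. Nupr1 rose by 1.04, Creb3l1 by 1.07 and Xbp1 by 0.47 on the log2 scale. The 3 factors of the rule are given as a description, since they helped to choose the wells on both sides. Rbpjl had 693 and 630 CPM in rich wells of EP10 and EP17, against 356 and 319 CPM in poor wells (log2 difference 0.97). Bhlha15 had 196 and 296 CPM in rich wells against 103 and 160 CPM in poor wells (0.91), and Ptf1a 376 and 617 CPM against 247 and 443 CPM (0.55). For these 3 genes the rich wells had the higher level on both plates.

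Other genes marked the rich wells. Sostdc1, a secreted inhibitor of BMP and Wnt signals, had 91.4 and 156 CPM in rich wells of EP10 and EP17, against 10.6 and 14.01 CPM in poor wells (log2 difference 3.22, SE 0.35, adjusted p 2.36e-17). Fxyd3, a regulator of the sodium pump, had 30.5 and 98.8 CPM in rich wells against 3.86 and 5.60 CPM in poor wells (3.41). Aqp8 had 138 and 222 CPM against 24.2 and 39.2 CPM (2.50). Gm10334 (3.14) and Gm5771 (2.29) lie among the trypsinogen genes of chromosome 6, outside the enzyme list used for the split, so near-identical copies may share their reads.

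Some cell cycle genes differed as well. In the rich wells 3 of 39 S phase genes fell and 0 rose (median −0.39), and 12 of 54 G2 and M phase genes fell and 0 rose (median −0.45). Without the mesenchymal wells 10 of 39 S phase genes and 13 of 53 G2 and M phase genes fell. Pcna, the sliding clamp of DNA replication, had 654 and 737 CPM in rich wells of EP10 and EP17, against 962 and 938 CPM in poor wells (log2 difference −0.47, SE 0.13, adjusted p 0.00965). Aurkb, a mitotic kinase, had 35.7 and 82.3 CPM in rich wells against 103 and 101 CPM (−1.14), and Ect2, of cell division, fell by 0.93. Btg2, an antiproliferative gene, rose by 0.63.

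The trunk and duct genes did not move in 1 direction: of 13 tested 2 rose and 2 fell in the rich wells, with a median of 0.13. Vim was higher in the poor wells, with 108 and 49.4 CPM in rich wells of EP10 and EP17 against 186 and 202 CPM in poor wells (log2 difference −1.07, SE 0.19, adjusted p 5.62e-06). Spp1 (osteopontin, a trunk and duct gene) had 20.9 and 20.6 CPM in rich wells against 215 and 86.8 CPM in poor wells (−3.16), but 1 well held 43.4% of its transcripts in the poor wells of EP10. Before thinning, Spp1 was seen in 14 of 32 rich and 18 of 33 poor wells in EP10 and in 3 and 9 of 28 in EP17. The rich wells were deeper in EP10, with a median of 37743 transcripts against 19923 in poor wells. In EP17 they were shallower, with 8177 against 10084. With all wells thinned to the same depth, Spp1 was seen in 4 rich and 6 poor wells in EP10. In EP17 it was then seen in 0 rich and 3 poor wells. The imprinted genes were divided. H19 had 4503 and 1535 CPM in rich wells against 2494 and 759 CPM (0.92), while Mest (−0.90) and Dlk1 (−0.58) fell, so that 3 of 15 rose and 4 fell.

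Split instead at the plate's median cell cycle share, into cycle-high and cycle-low wells, 32 and 33 wells in EP10 and 28 and 28 in EP17, the wells showed the same relation from the other side. Of 7528 genes tested, 322 passed (4.28%), 182 higher (2.42%) and 140 lower (1.86%) in cycle-high wells, the cell cycle genes left out. Enzymes outside the rule were 16 of the lower genes out of 23 tested, with 0 higher and a median log2 difference of −0.90 beside −0.01 over all genes. Without the block 0 passed in edgeR (271 at an unadjusted p under 0.05), DESeq2 called 18, and 0 passed with the wells of the authors' smaller table. The cycle-high wells of EP10 held 14 of the mesenchymal wells and the cycle-low wells 5, and without these 14 of 23 enzymes fell (median −0.68).

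Ctrb1 had 13189 and 28688 CPM in cycle-high wells of EP10 and EP17, against 23783 and 42154 CPM in cycle-low wells (log2 difference −0.70, SE 0.09, adjusted p 2.92e-12). Clps had 2714 and 7042 CPM in cycle-high wells against 5526 and 10763 CPM (−0.82), and Prss2 82.9 and 264 CPM against 485 and 687 CPM (−1.99). A single well held 33.8% of the Prss2 transcripts of the cycle-low wells in EP10 and 36.6% in EP17. Before thinning, Prss2 was seen in 21 of 28 cycle-high and 16 of 28 cycle-low wells of EP17. The cycle-high wells there were deeper, with a median of 12056 transcripts against 5112 in cycle-low wells. With all wells thinned to the same depth, Prss2 was seen in 10 cycle-high and 9 cycle-low wells of EP17. In EP10 the thinned counts were 6 of 32 cycle-high and 12 of 33 cycle-low wells. Cela2a (−1.35), Cela1 (−0.61), Cel (−0.64) and Pnliprp1 (−0.45) fell too. Cpa1, which the rule used on both sides, is given as a description (−0.27). Cpb1 was called lower (−1.14) but rests on EP10, with 189 CPM in cycle-high wells and 912 CPM in cycle-low wells; in EP17 it had 1092 CPM in cycle-high and 1072 CPM in cycle-low wells, where 1 well held 36.7% of the cycle-high transcripts, and with EP17 alone the log2 difference was 0.077.

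Fewer secretory genes were called in the cycle split. Of 31 folding genes 5 fell and 0 rose, with a median of −0.35, and 2 fell without the mesenchymal wells. Of 10 factors outside the rule 1 fell, Nupr1 (log2 difference −0.84, SE 0.17, adjusted p 0.000137). As a description of the rule's own factors, Rbpjl had 402 and 396 CPM in cycle-high wells of EP10 and EP17, against 649 and 541 CPM in cycle-low wells (−0.59), and the log2 differences of Ptf1a and Bhlha15 were −0.38 and −0.51. Of 10 cyclins and inhibitors 2 fell, Btg2 (−0.72) and the inhibitor Cdkn1c (−0.88), and 1 rose, the inhibitor Cdkn2c, with 13.49 and 20.3 CPM in cycle-high wells of EP10 and EP17 against 1.74 and 0 CPM in cycle-low wells. Trp53inp1, a p53 target, had 28.9 and 30.5 CPM in cycle-high wells against 118 and 102 CPM in cycle-low wells (−1.94). Sostdc1 had 6.74 and 43.2 CPM against 94.6 and 127 CPM (−2.63).

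**Figure D4:**
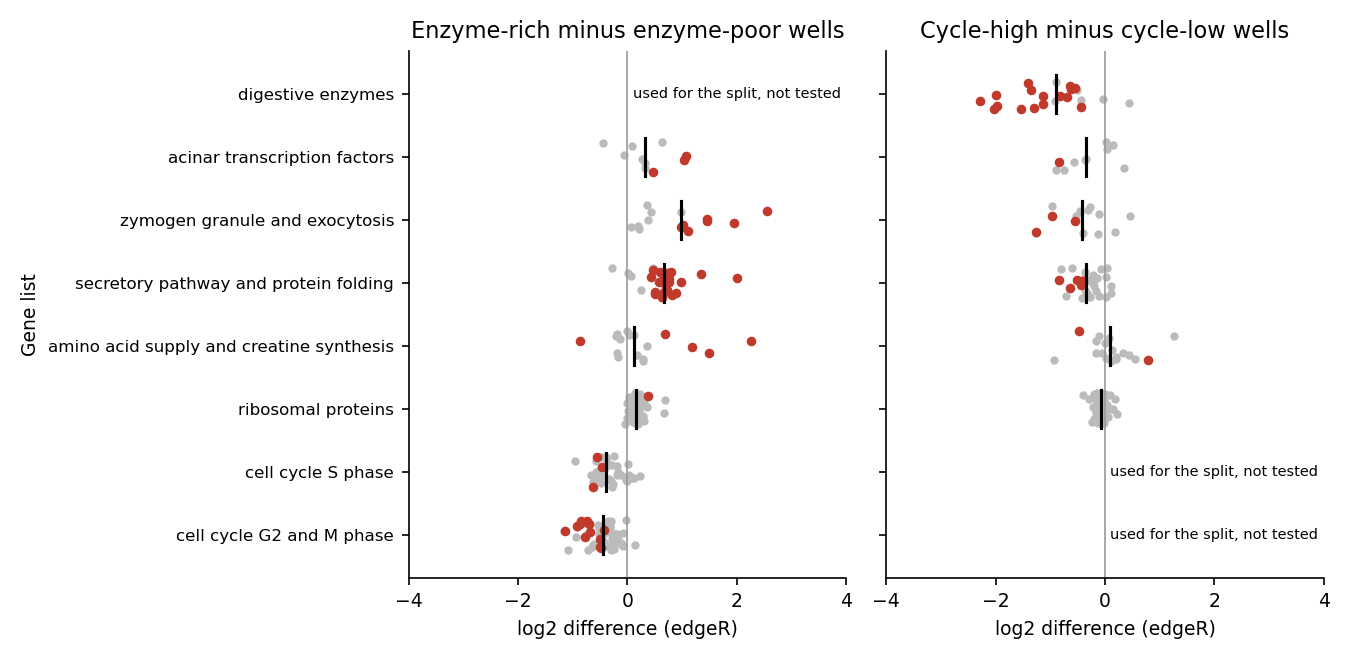
Log2 differences fitted by edgeR for gene lists in the enzyme-rich against enzyme-poor split (left) and the cycle-high against cycle-low split (right), 1 point per gene, red where the adjusted p is under 0.05; black bars are list medians. Folding and granule genes lie above 0 in the enzyme split (medians 0.66 and 0.98), and the enzymes mostly lie below 0 in the cycle split (median −0.90); the genes of the membership rule are left out.

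Across stages, wells that passed the same rule were compared between E15.5 (EP10 and EP17) and the 4 earlier experiments. The gate asks for the same Cpa1 share on both sides, so the comparison concerns what else such wells held. Of 8966 genes tested, 20 passed (0.223%), all of them higher at E15.5. Other settings also called lower genes. DESeq2 called 55 higher and 29 lower, and edgeR with no filter on low counts 225 higher and 93 lower. A slope per day gave 174 that rose and 121 that fell. Enzymes were among the 20 genes that passed. Several of the enzymes tested passed the filter on low counts through their E15.5 sums alone. No count or median over the enzymes is therefore given, and their calls are described gene by gene with the level in each experiment. The count of genes called ranged from 5 without EP17 to 35 without EP14. Depth per acinar well was a median of 28138, 11168, 26363 and 41253 transcripts in EP11, EP18, EP12 and EP14, and 35356 and 9189 in EP10 and EP17.

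Apart from Clps, the enzymes called were low or at 0 in all 4 earlier experiments. Prss1 had 196 and 302 CPM at E15.5 (EP10 and EP17), against 0 and 0 CPM at E12.5 (EP11 and EP18), 2.75 at E13.5 and 10.0 at E14.5 (log2 difference 5.76, SE 0.58, adjusted p 0.00748). A sum of 0 allows up to 7.36 CPM in EP11 and 10.9 CPM in EP18, the level of 3 transcripts. Try10 had 536 and 501 CPM at E15.5, against 0, 0, 22.7 and 8.18 CPM in EP11, EP18, EP12 and EP14 (5.55), and Cela3b 374 and 550 CPM against 0, 0, 16.5 and 13.6 CPM (5.44). Cpb1 had 636 and 1219 CPM at E15.5, against 0, 0, 46.0 and 20.002 CPM (5.43, adjusted p 0.0151). Prss3 had 79.0 and 33.8 CPM at E15.5 and 0 in all 4 earlier experiments. Rnase1 had 45.4 and 120 CPM at E15.5, against 2.45, 0, 0 and 1.82 CPM (6.22).

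Clps, already abundant at E12.5, had 4682 and 9341 CPM at E15.5, against 949, 959, 1617 and 1493 CPM in EP11, EP18, EP12 and EP14 (log2 difference 2.48, SE 0.39, adjusted p 0.0272). The abundant enzymes Ctrb1 and Pnliprp1 did not pass. In both, the level rose with stage among the earlier experiments. Pooling these stages as a single group counts that rise as error, so the missing call does not speak against a rise with stage. Ctrb1 had 20949 and 37402 CPM at E15.5, against 155, 281, 7158 and 9899 CPM (2.74, adjusted p 0.477), and Pnliprp1 12035 and 20335 CPM against 285, 569, 3110 and 4730 CPM (2.89, adjusted p 0.257). Enzymes as a whole took a median of 4.94% and 7.21% of a gated well at E15.5, against 0.642%, 0.699%, 2.34% and 3.27% in EP11, EP18, EP12 and EP14.

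Outside the enzymes, Pdia2 had 117 and 116 CPM at E15.5, against 0, 0, 1.37 and 9.09 CPM in EP11, EP18, EP12 and EP14 (log2 difference 4.96, SE 0.61, adjusted p 0.00914). Aqp8 had 93.3 and 128 CPM at E15.5 against 2.45, 0, 0 and 10.9 CPM (4.72), and Ass1 149 and 43.1 CPM against 0, 0, 4.12 and 4.55 CPM (4.89). Egln3, an oxygen-sensing hydroxylase, had 29.6 and 75.0 CPM against 2.45, 0, 2.75 and 3.64 CPM (4.15), and Sel1l 583 and 863 CPM against 189, 128, 174 and 219 CPM (2.01). None of the 10 factors tested passed (median 0.31), and 1 of 31 folding genes did (median 1.00). No S phase or G2 and M phase gene passed (medians −0.05 and 0.27). Wells with at least 20 cell cycle transcripts after thinning were 50% in EP11, 50% in EP18, 65.3% in EP12 and 66.7% in EP14, beside the 67.7% and 58.9% at E15.5. In simulated data of the same size the fit recovered 9 of 100 genes changed 2-fold and 75 of 100 changed 4-fold, so smaller changes between stages were mostly not detectable.

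**Figure D5:**
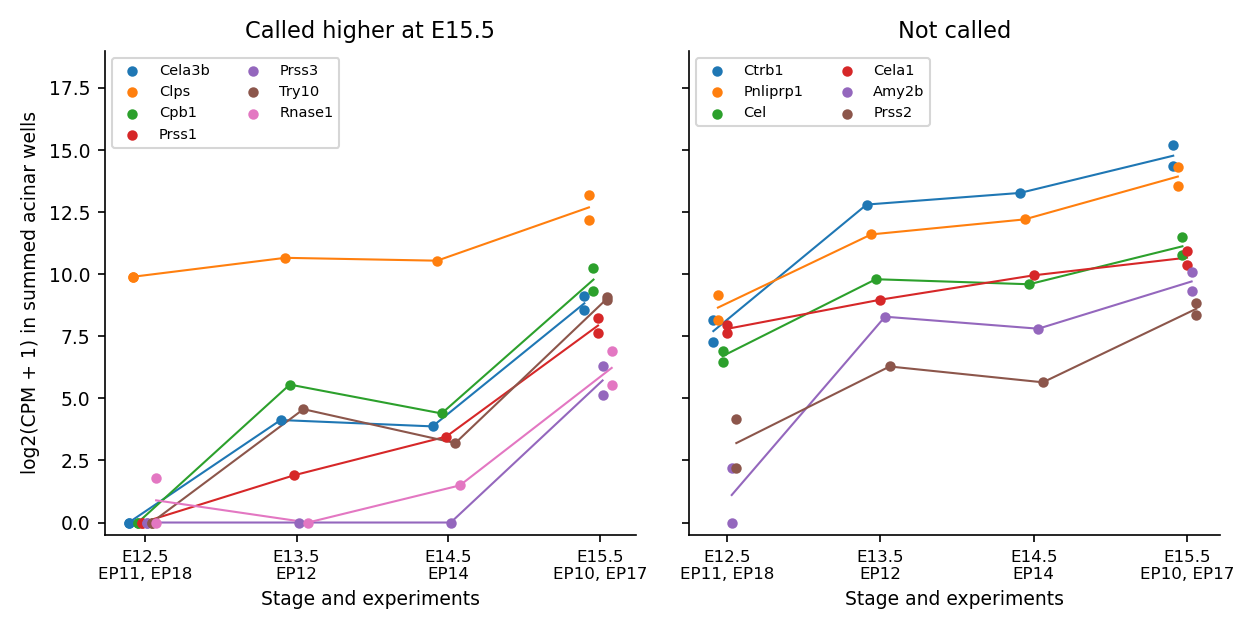
Summed level on a log2(CPM + 1) axis of digestive enzymes in wells passing the acinar rule, by stage from E12.5 to E15.5, with enzymes that passed on the left and 6 that did not on the right; points are experiments and lines join the stage means. Prss1, Try10 and Cpb1 start at 0 in both E12.5 experiments and reach 196 to 1219 CPM at E15.5, while Clps starts at 949 and 959 CPM.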

How the data were processed

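Transcripts were counted per gene and well with SORT-seq, sequenced as paired-end reads on a NextSeq500, per the labels' protocols. The deposited values are expected counts, transcripts estimated from molecular barcodes with no scaling for depth. On the live plates of EP10 and EP17 the smallest value above 0 is 1.00196 and the largest 1597. BWA, Seurat and mm10 are named in the submitters' processing notes without versions. Of 7296 columns, 5760 wells on 15 plates matched the labels, and 1536 columns matched no sample and were not used. The plates' libraries share 1 name, so libraries could not be told apart, and no well had values identical to another's.

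The members and gene lists were chosen with earlier results of these data known. Values were rounded and summed per plate and group (at least 10 wells), then tested with edgeR 4.0.16 (R 4.3.3): quasi-likelihood, TMM scaling, filterByExpr, the plate as block except between stages, and Benjamini-Hochberg adjustment at 0.05 over all genes tested. Genes that a rule used were not tested, except that the splits of acinar wells were fitted with the 4 genes of the membership rule in the table; these are given there as a description. Sums from 1 plate deviated together (correlations 0.571, 0.553, 0.575 and 0.512 for the other-well, trunk, enzyme and cell cycle comparisons), and the pairing comes from the shared plate. Named genes were up to 10 per direction with the largest change among those called, at 50 CPM or more in the higher group and in 1 direction on both plates (for stages, with groups that did not overlap), up to 4 called genes per list, and any enzyme, factor or granule gene. Trunk wells were not acinar, had Epcam, transcripts of at least 2 trunk genes (Sox9 and Spp1 among those used), no Chga, Neurog3 or Fev, and hormones under 1%. No doublet caller was run, since wells held sorted single cells. As an alternative, gene comparisons left out wells above 5 times the plate's median over wells with at least 2000 transcripts. These were 1 acinar well of EP10 and 2 of EP17. Against the median of the kept wells, 0 acinar wells of EP10 and 2 of EP17 lay above that multiple, and this median served for the correlations. On simulated data the fit recovered, of 100 genes changed 4-fold, 98 (other wells), 97 (trunk), 100 (enzyme split) and 99 (cell cycle split). Of 100 genes changed 2-fold it recovered 38, 47, 80 and 61 in the same order. All simulations gave every gene the same spread and changed only genes with a mean of at least 50 CPM, so real recovery may differ. Some genes are not reported here by name, though sums over lists include them. Intervals are Wilson's. Python 3.11.15, scipy 1.17.1 and pandas 2.3.3 were used.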

Additional observations from a re-analysis of the deposited data

Results flagged for a closer look

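Among the 4 earlier experiments of the stage comparison, 22 genes were examined for a sample far from the other 3, and 3 were found. The usual rate of about 1 in 20 holds for samples of the same kind. It does not apply here, since these experiments differ in stage and the 3 genes were at 0 in EP11 and EP18. Cela2a, an elastase, had 64.6 CPM in acinar-gated wells of EP12 (E13.5), against 0, 0 and 10.0 CPM in EP11, EP18 and EP14. 2210010C04Rik, a trypsinogen-like gene, had 13.05 CPM in EP12 and 0 in the other 3. Pdia2 had 9.09 CPM in EP14 (E14.5), against 0, 0 and 1.37 CPM in EP11, EP18 and EP12. All 3 values lie below those of both E15.5 experiments, which were 663 and 747 CPM for Cela2a, 72.4 and 113 CPM for 2210010C04Rik and 117 and 116 CPM for Pdia2.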

How the results depend on the processing

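The number of genes called went from 2310 against other wells to 527 with DESeq2, 0 without the replicate block, 1042 with Cpa1 at 1% or more, 266 with wells thinned to 2000 transcripts and 874 with the authors' smaller table of wells. Against trunk wells 1006 became 146 with DESeq2, 0 without the block and 96 thinned. Between stages 20 became 84 with DESeq2, 318 with no filter on low counts, 295 as a slope per day, 12 thinned, 13 with the authors' wells, and from 5 to 35 with an experiment left out. For the enzyme split 403 became 33 with DESeq2, 222 with no filter, 0 without the block, 19 with Cpa1 at 1%, 35 thinned and 51 with the authors' wells. For the cell cycle split 322 became 18 with DESeq2, 0 without the block, 44 with Cpa1 at 1%, 21 thinned and 0 with the authors' wells (350 at an unadjusted p under 0.05). The number of genes tested differed between settings, so these counts have unlike bases. For the enzyme split it was 7395 in the main fit, 689 with DESeq2, 1069 thinned, 4139 with Cpa1 at 1% and 14044 with no filter. All 33 DESeq2 calls there were also called in the main fit, in the same direction. Thinning and the stricter rule leave fewer transcripts or wells, and the cause of the other changes was not tested. Left out as an alternative added after seeing the data, the wells with mesenchymal transcripts gave 2365, 758, 25, 452 and 332 calls in these 5 comparisons, and other wells with enzymes under 1% gave 2391 and 1014 in the first 2.

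The EP10 share of acinar wells was 7.99% with Cpa1 at 1%, 17.01% with at least 2 factors, 47.1% among the authors' wells (24 of 51) and 15.97% without the mesenchymal wells, and the EP17 share was 24.8% with Cpa1 at 1%. The Spearman correlation of enzyme and cell cycle share in EP17 was −0.494 with Cpa1 at 1%. Of the genes named 2 turned: Col3a1 against trunk wells without mesenchymal wells (0.33) and Cpb1 in the cell cycle split, which ran from −2.25 with EP10 alone to 0.077 with EP17 alone. With 1 plate left the blocked comparisons give a difference and no test, and the authors' wells held too few trunk wells for a sum. Depth limits calls of rare genes: 3 transcripts stand for 10.9 CPM in EP18, 7.36 in EP11 and 5.63 in EP17.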
